A study of Mus musculus with 4 samples.

Results

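The Dlk1-Dio3 imprinted locus on distal mouse chromosome 12 was described through its 5 named genes Dlk1, Meg3, Rian, Rtl1 and Dio3. A gene was measured through the probe sets that carry its symbol and no other, and each of the 5 had 1 such probe set, so 5 of 19938 measured genes were members. The study hybridised total RNA of mouse embryonic fibroblasts (MEF), of 2 lines of induced pluripotent stem (iPS) cells named 178B5 and 492B4, and of embryonic stem (ES) cells of line v6.5 to 1-colour Affymetrix arrays, with 1 array each. iPS cells are somatic cells reprogrammed to a pluripotent state, and ES cells are derived from an early embryo. The MEF and both iPS lines had a mixed DBA/2, C57BL/6 and 129S4 background, whereas v6.5 came from an F1 cross, 129 with C57BL/6. Strain and cell type therefore cannot be told apart between iPS and ES. MEF were grown in DMEM with serum, and the 3 pluripotent lines in ES medium with serum on mitomycin-C-treated SNL feeder cells, which are fibroblasts. The labels name no passage, repeat culture or reprogramming method. Separate lines stood as replicates, so p-values rest on the spread between the 3 pluripotent lines, or between the 2 iPS lines where ES stands apart. The single arrays of MEF and, there, of ES were assumed to vary likewise.

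In this locus, Dlk1, Rtl1 and Dio3 are expressed from the paternal chromosome, while Meg3, Rian, Mirg and the many microRNAs and small nucleolar RNAs that lie within these transcripts are expressed from the maternal one. A differentially methylated region between Dlk1 and Meg3 sets this pattern, and the maternal RNAs are known for being silenced in some mouse iPS lines. The arrays carried no allele information, so imprinting itself, and its loss, was not measured. What was compared is the total RNA signal of each gene in each iPS line with that in ES and in MEF.

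Every deposited value was on a log scale, read as log2, and centred to a median of 0 per probe set. A value is thus a position relative to the other arrays, the middle arrays of a probe set sit at equal distances on either side of 0, and no expression level can be read from it. Arrays at the same value may both carry the RNA or both lack it. In a bulk sample, fewer cells with an RNA and less of it per cell cannot be told apart.

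The promoters of Dlk1, Meg3 and Dio3, the members that passed an adjusted p of 0.05 in at least 1 comparison with MEF, show how different the CpG content of the starts in this locus is. Each is the RefSeq sequence of assembly GRCm38.p6 from 250 bases before to 50 bases after the annotated start, plus strand, with every CG dinucleotide in capitals. They lie at chr12:109452573-109452872 for Dlk1, chr12:109540746-109541045 for the upstream of the annotated Meg3 starts, and chr12:110278980-110279279 for Dio3.
Dlk1 promoter: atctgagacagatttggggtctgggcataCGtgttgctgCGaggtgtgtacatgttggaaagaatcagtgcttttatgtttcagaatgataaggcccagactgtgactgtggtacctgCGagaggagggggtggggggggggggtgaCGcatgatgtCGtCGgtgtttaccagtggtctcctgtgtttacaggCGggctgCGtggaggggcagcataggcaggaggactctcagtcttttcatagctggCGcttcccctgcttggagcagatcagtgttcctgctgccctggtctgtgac
Meg3 promoter: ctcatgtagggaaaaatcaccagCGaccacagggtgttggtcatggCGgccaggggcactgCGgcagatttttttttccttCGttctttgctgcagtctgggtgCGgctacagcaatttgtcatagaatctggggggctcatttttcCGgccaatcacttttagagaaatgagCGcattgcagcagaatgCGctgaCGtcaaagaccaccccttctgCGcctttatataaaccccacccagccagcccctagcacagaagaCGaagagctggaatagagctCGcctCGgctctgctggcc
Dio3 promoter: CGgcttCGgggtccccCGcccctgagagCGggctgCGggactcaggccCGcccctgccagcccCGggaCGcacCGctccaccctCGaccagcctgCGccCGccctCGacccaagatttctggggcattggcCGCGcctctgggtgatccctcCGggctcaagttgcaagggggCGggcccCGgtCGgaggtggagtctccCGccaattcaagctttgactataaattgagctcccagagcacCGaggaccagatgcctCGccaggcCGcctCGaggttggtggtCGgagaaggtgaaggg

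The Dlk1 promoter held 9 CG dinucleotides, and 45.8% of the 32851 promoters in the table held as many or more. The Meg3 promoter held 13 (37.9% of promoters) and that of Dio3 25 (18.4%), against a median of 7. The window of the same 300 bases around the Rian start held 0. The 8 letters of the cAMP response element, TGACGTCA, which read the same on both strands, occurred in the Meg3 window at base 194 and in 1.79% of all promoters. The core letters bound by the imprint-maintaining protein ZFP57, TGCCGC, searched on both strands, occurred there 1 time and in 11.6% of promoters. These are matches of letters and not measured binding. Methylation was not measured.

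Of the 40 measured microRNA precursors of the locus, 6 had a signal at least 1 log2 lower on the iPS 492B4 array than on MEF. The same limit was passed by 2386 of all 19938 genes and by 7 of 257 microRNA precursors elsewhere. These counts have no test. The mature microRNAs of the 6 are printed below. They are RefSeq sequences, 5′ to 3′, with the seed, bases 2 to 8, which pairs with target RNAs, in capitals.
miR-377-5p: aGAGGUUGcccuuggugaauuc
miR-377-3p: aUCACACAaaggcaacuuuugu
miR-382-5p: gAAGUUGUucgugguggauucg
miR-382-3p: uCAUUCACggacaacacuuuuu
miR-134-5p: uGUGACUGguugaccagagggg
miR-134-3p: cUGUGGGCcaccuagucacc
miR-668-5p: gUAAGUGUgccucgggugagcaug
miR-668-3p: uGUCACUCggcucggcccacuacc
miR-485-3p: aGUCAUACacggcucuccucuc
miR-323-5p: aGGUGGUCcguggcgcguucgc
miR-323-3p: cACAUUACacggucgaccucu

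None of these 11 arms shared its seed with another of them. All 40 measured precursors of the locus had a sequence in the table, with 76 mature arms and 74 distinct seeds. For Mir376c, Mir487b, Mir539 and Mir485 only the 5p or only the 3p arm was listed. Among the listed arms the shared seeds were AUGUAAC in miR-379-3p and miR-411-3p, and UGGAUAU in miR-376b-5p and miR-376c-5p. The probe sets report the precursor or its host transcript, and mature microRNAs were not measured separately.

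Dlk1 was the member with the widest range over the arrays. Dlk1 encodes a transmembrane protein of the Delta-like family that restrains fat cell formation. Its centred log2 value was 2.04 in MEF, -0.14 in iPS 178B5, -0.79 in iPS 492B4 and 0.14 in ES v6.5. MEF stood above all 3 lines, and 492B4 was the lowest. Relative to MEF the signal was 4.53-fold lower in 178B5, 7.13-fold lower in 492B4 and 3.75-fold lower in ES, and the 3 lines had an SD of 0.48 log2. Dlk1 fell by 2.31 log2 in the pluripotent lines against MEF (95% confidence interval -3.36 to -1.25, n = 3 lines and 1 MEF array, limma adjusted p = 0.0216). It also fell in iPS against MEF (log2 difference -2.51, n = 2 lines and 1 MEF array, limma adjusted p = 0.00997). In ES against MEF the difference was -1.91 (n = 1 array each, limma adjusted p = 0.0312). That call has no replicate of either group, since its spread came from the 2 iPS arrays with 1 residual degree of freedom, and ES and MEF were assumed to vary like them. These 3 comparisons share the MEF array. Without iPS 178B5 the first of these differences was -2.37 with a limma adjusted p of 0.0696, so the call rested on that array being in the fit.

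Rtl1, a retrotransposon-derived gene needed for the placenta and muscle, had centred values of 0.34 in MEF, -0.01 in 178B5, -0.41 in 492B4 and 0.01 in ES. MEF was highest and 492B4 lowest, but the difference of the pluripotent lines from MEF, -0.47 log2 (95% confidence interval -1.08 to 0.134), did not pass (limma adjusted p = 0.213). In the gene table Rtl1 overlaps Meg3 and, among others, the antisense microRNA genes Mir431, Mir433, Mir127, Mir434 and Mir136. Mir673, Mir337, Mir540 and Mir665 also come after the Rtl1 start and before Mir431 in chromosomal order. Which strand the probes read is nowhere stated in the labels, and the overlapping RNAs cannot be told apart at these probe sets.

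Dio3 encodes the type 3 deiodinase, a selenoprotein that inactivates thyroid hormone. Its values were 0.68 in MEF, -0.33 in 178B5, -0.28 in 492B4 and 0.28 in ES. Both iPS lines lay next to each other at the bottom, with ES between them and MEF. The iPS lines differed from MEF by -0.99 log2 (95% confidence interval -1.37 to -0.602, limma adjusted p = 0.0126), which passed the p threshold and missed the minimum of 1 log2. ES differed from MEF by -0.40 log2 (95% confidence interval -0.846 to 0.0418, limma adjusted p = 0.16). With the arrays centred on reference genes, the iPS difference was -1.14 log2 and Dio3 was called (limma adjusted p = 0.00842).

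Meg3, a long non-coding RNA of the maternal chromosome, had values of 0.60 in MEF, 0.20 in 178B5, -0.20 in 492B4 and -0.65 in ES. ES, not an iPS line, was the lowest array. The ES value lay below that of MEF by 2.38-fold, a log2 difference of -1.25 (95% confidence interval -1.96 to -0.545, limma adjusted p = 0.0357). As for Dlk1, this call sets 1 ES array against 1 MEF array, and its spread is that of the 2 iPS arrays alone. The iPS lines differed from MEF by -0.60 log2 (limma adjusted p = 0.115), and the 3 lines together by -0.82 log2 (limma adjusted p = 0.182).

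Rian, the host RNA of many of the locus's small nucleolar RNAs, was the only member with its lowest value in MEF. The values were -0.42 in MEF, 0.07 in 178B5, 0.01 in 492B4 and -0.01 in ES, and the SD of the 3 lines was 0.04. The difference from MEF was 0.45 log2 (95% confidence interval 0.0809 to 0.812, limma adjusted p = 0.0859) and was not called. A second probe set, which also names the small nucleolar RNA gene AF357355 and was therefore left out, had another pattern. It read -0.33 in MEF, 0.33 in 178B5, -0.67 in 492B4 and 0.40 in ES, with 492B4 the lowest. On this probe set 492B4 minus ES was -1.07 log2, whereas on the Rian probe set the same difference was 0.01. Which of the probe sets follows Rian was not tested.

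**Figure D1:**
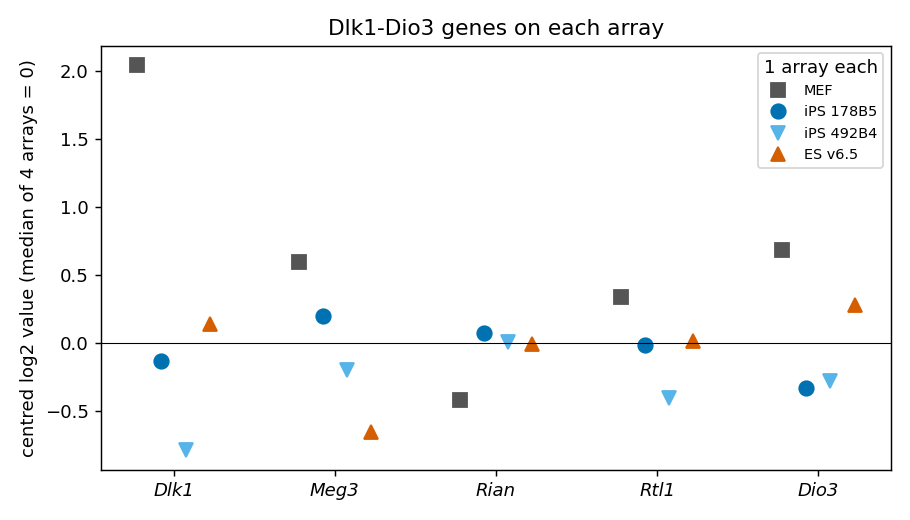
Centred log2 value of Dlk1, Meg3, Rian, Rtl1 and Dio3 on each of the 4 arrays (1 point per array, 0 is the median of the 4). MEF is the top point for 4 genes and the bottom one for Rian, and ES is the bottom point for Meg3.

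Counted over the members, 1 of 5 was called lower in the pluripotent lines against MEF, where 9.71% of all genes were called lower and 17.6% were called in either direction. In iPS against MEF 1 of 5 was called lower, beside 11.2% of all genes (21.1% in either direction). In ES against MEF, with 1 array each, 2 of 5 were called lower, beside 10.9% (20.0% in either direction). With 5 members these counts do not set the locus apart from other genes. The median difference of the members from MEF was -0.79 log2 for the pluripotent lines, where the median of all genes was -0.10.

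**Figure D2:**
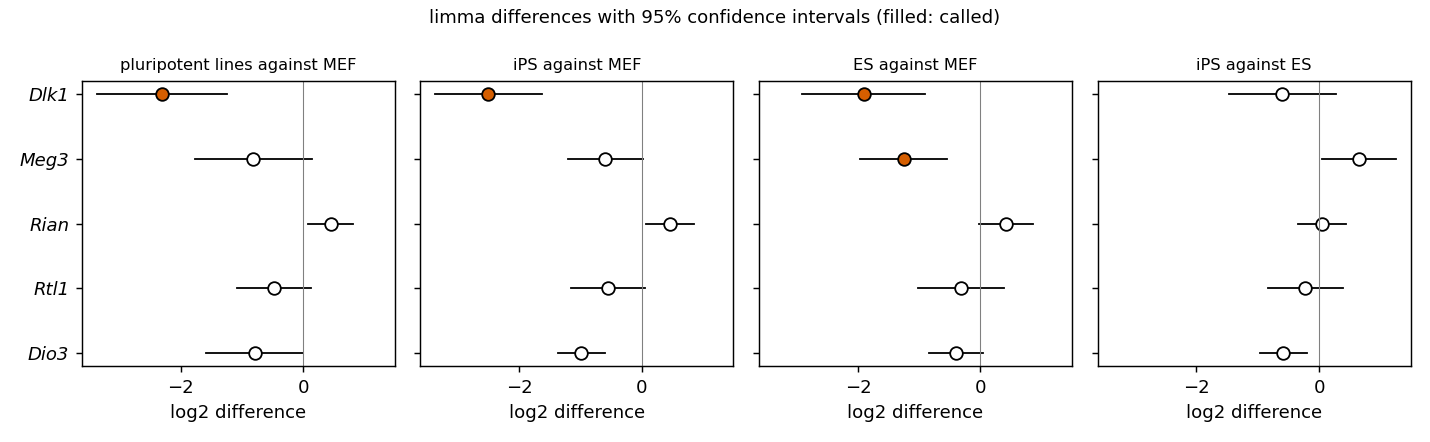
Differences of the 5 members in the 4 limma comparisons, in log2, with 95% confidence intervals; filled points passed an adjusted p of 0.05 and 1 log2. Dlk1 is filled in the 3 comparisons with MEF and Meg3 in ES against MEF, and no point is filled in iPS against ES.

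The comparison of iPS with ES asks whether reprogrammed cells carry less of the locus's RNA than ES cells. No member was called, and 0.0% of all 19938 genes were called by limma with Benjamini-Hochberg adjustment, although 3079 genes had an unadjusted p under 0.05. Meg3 and Dio3 were among the latter. Meg3 was 0.65 log2 higher in iPS (95% confidence interval 0.0423 to 1.26, unadjusted p = 0.0412, limma adjusted p = 0.309). Dio3 differed by -0.58 log2 (95% confidence interval -0.969 to -0.2, unadjusted p = 0.0135, limma adjusted p = 0.23). The intervals were -1.47 to 0.274 for Dlk1, -0.344 to 0.432 for Rian and -0.831 to 0.383 for Rtl1, so a Dlk1 difference of more than 1 log2 is inside its interval. On these arrays Meg3 lay above the ES value in each iPS line. Its interval cannot decide whether iPS cells in general carry less Meg3 than ES cells. The spread came from the iPS arrays alone, the single ES array was assumed to vary likewise, and strain differs between iPS and ES.

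Line by line, none of the 5 members differed from ES by 1 log2 or more in either iPS line, where 2.75% of all genes did in 178B5 and 4.73% in 492B4. These single-array differences have no replicate check. Meg3 was 0.85 log2 above ES in 178B5 and 0.45 above it in 492B4. For Dlk1 the differences were -0.27 in 178B5 and -0.93 in 492B4, and 5.84% of all genes lay at least as far from ES in 492B4. For Dio3 they were -0.61 and -0.56, for Rtl1 -0.03 and -0.42, and for Rian 0.08 and 0.01. On the probe sets with 1 gene symbol, no member was lower than ES by 2-fold, or 1 log2, in either iPS line. The probe set that names both Rian and AF357355 did pass this limit in 492B4, at -1.07 log2 from ES. In 178B5 it differed from ES by -0.07. Whether it follows Rian was not tested. Against MEF, Dlk1 and Dio3 were past 1 log2 in 178B5 (21.1% of all genes), Dlk1 alone in 492B4 (23.4%), and Dlk1 and Meg3 in ES (21.5%).

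Markers of other cell types are given beside these differences, since many lay to one side of ES, although limma called 0 of 19 fibroblast and 0 of 15 primitive endoderm markers in iPS against ES (18 and 13 at an unadjusted p under 0.05). The 19 measured fibroblast markers were below ES in 19 of 19 cases in 178B5 and 18 of 19 in 492B4, with medians of -1.57 and -1.95 log2. Over all genes 57.5% were below ES in 178B5 and 59.1% in 492B4. Their medians on the arrays were 3.09 in MEF, 0.78 in ES, -0.81 in 178B5 and -1.02 in 492B4, which is the order of the Dlk1 values, and MEF was the highest array for 19 of the 19. All 15 primitive endoderm markers were above ES in both iPS lines, with medians of 2.04 log2 in 178B5 and 1.36 in 492B4. The feeder cells are fibroblasts. The part of either cell type in the Dlk1, Meg3 or Dio3 values was not tested. The 12 pluripotent cell markers were all called higher in the lines than in MEF, with a median of 5.73 log2, and 0 of them were called between iPS and ES (0 also at an unadjusted p under 0.05 by limma).

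**Figure D3:**
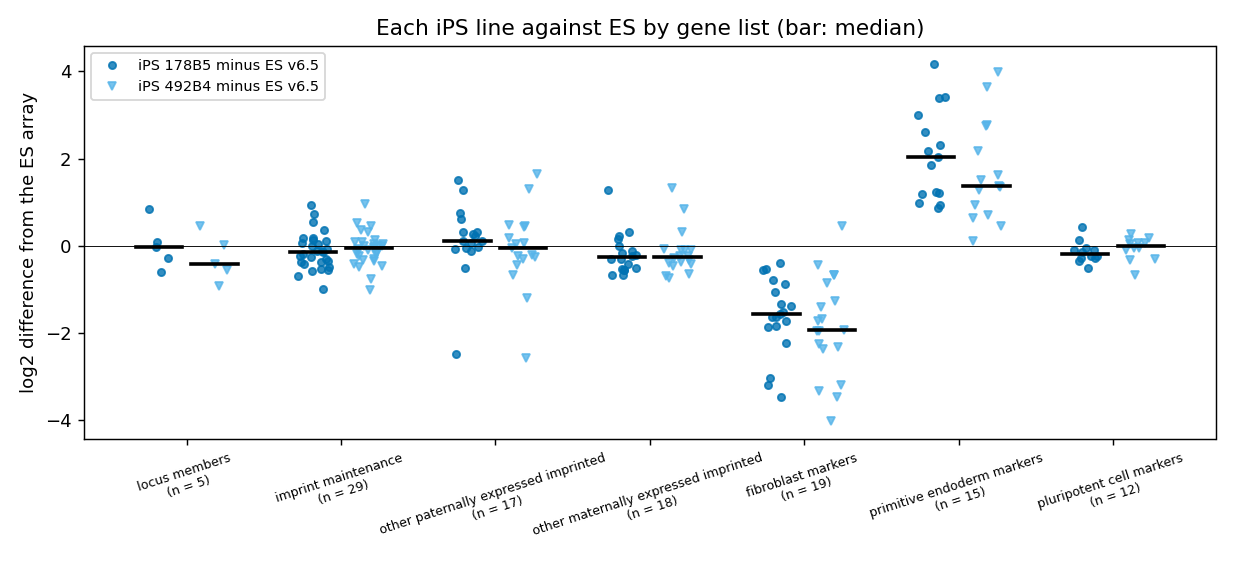
Difference of each iPS line from the ES array, in log2, for the members of 7 gene lists (1 point per gene, bars are medians). Fibroblast markers sit below 0 in both lines, apart from 1 in 492B4, and primitive endoderm markers sit above 0 in both. The locus members lie between -0.93 and 0.85.

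Between the iPS lines, 4 of the 5 members had lower values in 492B4 than in 178B5. The differences were -0.65 log2 for Dlk1, -0.40 for Meg3, -0.39 for Rtl1, -0.06 for Rian and 0.05 for Dio3. None reached 1 log2, as 0.612% of all genes did, and Dlk1 alone was lower by at least 0.5 log2, as were 3.3% of all genes. From MEF, 4 of 5 members were lower by at least 0.5 log2 in 492B4, beside 24.3% of all genes. Over all genes 53.1% had lower values in 492B4 than in 178B5.

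The small RNA precursors widen this view of the maternal transcripts. Between Begain and Dio3 48 genes were measured, of which 40 were microRNA precursors and 2 were small nucleolar RNAs. The 492B4 array had the lowest of the 4 values for 30 of the 40 precursors (75.0%). The same array was lowest for 117 of 257 microRNA precursors elsewhere in the genome (45.5%) and for 34.2% of all genes, and its values spread more widely over all probe sets (SD 0.282 log2) than those of 178B5 (SD 0.195). In 492B4 relative to 178B5, 33 of the 40 locus precursors were below 0 (82.5%), with a median of -0.15 log2, against 139 of 257 elsewhere (54.1%), with a median of -0.02. This count was 33 also with the array medians set equal and with the arrays centred on reference genes. The precursors overlap long transcripts and share 1 array per line, so they are not independent, and the comparison with precursors elsewhere was chosen after the values were seen and has no test.

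Of the 40 precursors 6 were lower in 492B4 than in 178B5 by at least 0.5 log2, against 4 of 257 elsewhere. Over all genes 3.3% were. A range of at least 0.5 log2 over the arrays was found for 22 of the 40 and for 89 of the 257. Precursors with a smaller range cannot pass this limit. Mir377, whose arms are printed above, had the widest difference between the iPS lines among the 40. It read 1.00 in MEF, 0.56 in 178B5, -0.63 in 492B4 and -0.56 in ES. Here 492B4 was close to ES and 178B5 was nearer to MEF, with a difference of -1.19 log2 between the iPS lines. Of all genes 0.171% lay further down, but Mir377 was picked as the widest of 40 precursors, so this share is no test.

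Mir382 read 0.65 in MEF, 0.20 in 178B5, -0.73 in 492B4 and -0.20 in ES, a difference of -0.93 between the iPS lines. Mir134 had the same order, with -0.57 in 492B4 and -0.07 in ES, and so did Mir485, with -0.38 and -0.13. Mir668, at -0.72 in 492B4, and Mir323, at -0.26, were also lowest there, and 178B5 and ES lay at -0.11 and 0.11 for Mir668. For 5 of these 6 precursors 492B4 was at least 0.5 log2 below 178B5, and for Mir323 the difference was -0.14. The 6 were picked for a 492B4 value at least 1 log2 below MEF, which itself favours a low place in 492B4. This count is therefore no support, and over all 40 precursors 6 passed 0.5 log2. Mir380 was the remaining precursor past 0.5 log2, at -0.62. The small nucleolar RNA genes DQ267102 and DQ267101 had differences of -0.60 and -0.38 log2 between these lines.

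Mirg, the most distal of the long maternal RNAs, was read only through a probe set shared with Mir410. It stood at 0.32 in MEF, 0.85 in 178B5, -0.32 in 492B4 and -0.60 in ES. The iPS 178B5 value was thus the highest of the 4, 1.46 log2 above ES, and 492B4 differed from 178B5 by -1.17 log2.

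**Figure D4:**
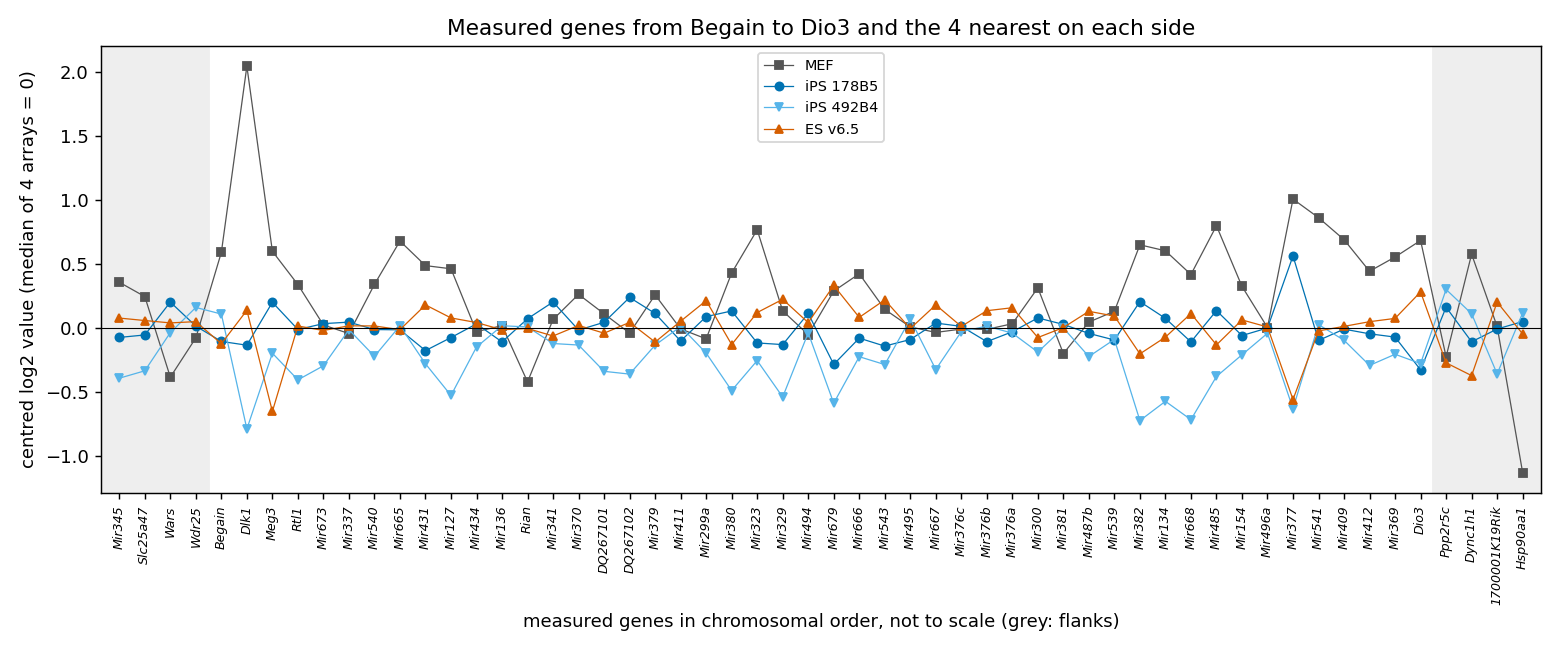
Centred log2 value of every measured gene from Begain to Dio3 and of the 4 nearest genes on each side (grey), in chromosomal order and not to scale, with 1 line per array. The MEF line is highest at Dlk1, and the 492B4 line is the lowest at 30 of the 40 microRNA precursors.

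In limma, 0 of 40 precursors were called in each of the 4 comparisons. Of all genes, 17.6% were called in the pluripotent lines against MEF, 21.1% in iPS against MEF and 20.0% in ES against MEF. In iPS against ES 0.0% of all genes were called, so a count of 0 there says nothing particular about the precursors. Of the 40, at an unadjusted p under 0.05, there were 8 in the pluripotent lines against MEF and 14 in iPS against MEF. There were 6 in ES against MEF and 3 in iPS against ES. In this order these are 20%, 35%, 15% and 7.5% of the precursors. Each is below the share of all genes at this unadjusted limit, which was 37.8%, 45.4%, 38.2% and 15.4%. With the arrays centred on reference genes 3 of 40 were called lower in the pluripotent lines, without iPS 178B5 1 was, and at a minimum of 0.5 log2 4 were. The median differences from MEF were -0.36 log2 for iPS and -0.19 for ES. The nearest to a call was Mir541, at -0.89 log2 (limma adjusted p = 0.0184), under the minimum of 1 log2.

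**Figure D5:**
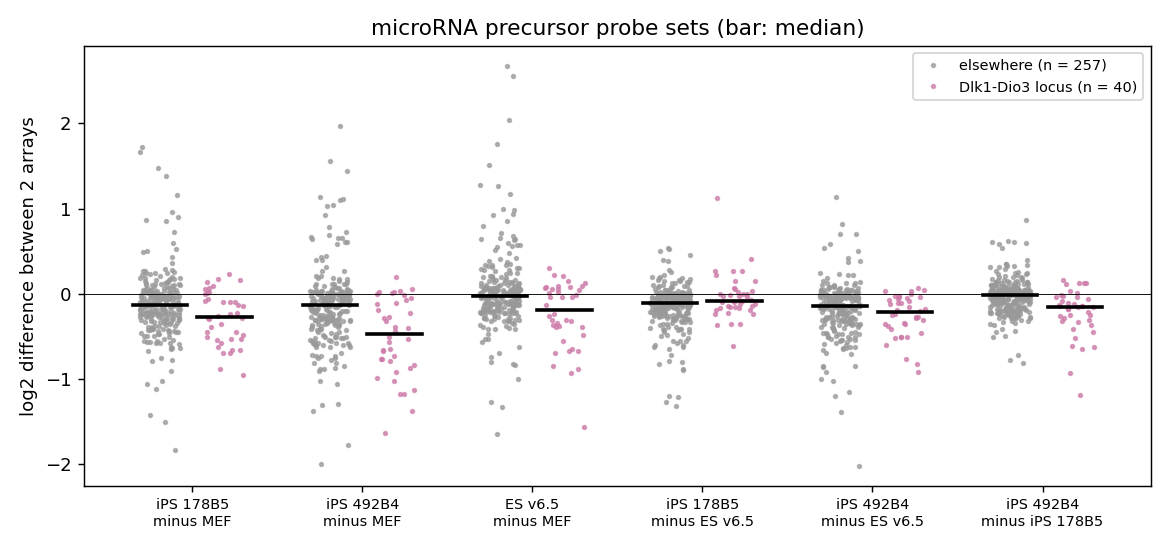
Log2 differences between pairs of arrays for the 40 microRNA precursors of the locus and the 257 elsewhere (1 point per precursor, bars are medians). The locus median lies at -0.47 in 492B4 minus MEF, where that of precursors elsewhere is -0.13, and at -0.15 in 492B4 minus 178B5.

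Beside the locus the genes showed no common direction. Of the 8 flanking genes 1 was called, the chaperone gene Hsp90aa1, which rose by 1.17 log2 in the pluripotent lines (limma adjusted p = 0.0118; 0.0696 without iPS 178B5). In the pluripotent lines against MEF 17.6% of all genes were called, and the median of the 8 was 0.04 log2. In 492B4 minus 178B5 their median was -0.09 log2, from -0.35 to 0.22, with 4 above 0 and 4 below. In that pair 0 of 8 were lower by at least 0.5 log2, beside 3.3% of all genes. With 8 genes this count does not set the flanks apart from the locus or from other genes. Begain, at the near end of the locus, read 0.59 in MEF, -0.11 in 178B5, 0.11 in 492B4 and -0.12 in ES.

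The genes that write and keep imprints were mostly higher in the lines than in MEF. Of 29 measured genes 17 were called higher and 0 lower, with a median of 1.27 log2, beside 17.6% of all genes called in either direction and an all-gene median of -0.10. Dnmt3l, the cofactor of the de novo DNA methyltransferases, rose by 6.04 log2 (limma adjusted p = 0.00334), and Dnmt3b, one of these enzymes, by 3.52. Tet1, which oxidises methylcytosine, rose by 4.48 and Hells, a chromatin remodeller, by 3.42. Zfp57, which holds methylation at imprinted control regions, had -2.15 in MEF, -0.09 in 178B5, 0.09 in 492B4 and 0.11 in ES. The 3 lines lay within 0.2 log2 for Zfp57, and also for Dppa3, an oocyte-derived protector of imprints, which read -2.97, -0.05, 0.07 and 0.08. Between iPS and ES 0 of the 29 were called by limma, with 8 at an unadjusted p under 0.05. Without iPS 178B5, 10 of the 29 were called higher against MEF.

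Known partners of the members were called at shares near that of all genes, 17.6% in either direction. Of 20 Notch pathway genes and DLK1 partners, 2 were called higher and 3 lower, with a median of -0.25 log2. Sox9, a transcription factor that DLK1 is known to act upon in mesenchymal cells, fell by 2.04 log2 (limma adjusted p = 0.0138), the receptor gene Notch2 fell by 1.71, and the matrix gene Fn1 fell by 1.16. The ligand genes Jag2 and Dll1 rose by 2.00 and 1.12 log2. Without iPS 178B5 1 of the 20 was called, Notch2, and with reference genes centred Dll1 was not called.

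Of 16 genes that handle thyroid hormone, the substrate of the Dio3 enzyme, 2 were called higher and 2 lower, with a median of 0.12 log2, again near the 17.6% of all genes. The receptor gene Thra fell by 1.43 log2 and its partner Rxra fell by 1.64, while the coactivator gene Ncoa3 rose by 2.14 and the hormone-responsive gene Klf9 by 1.02. Both other deiodinase genes had small differences and were not called. Of 7 genes needed to make selenoproteins such as Dio3, 2 were called higher, Eefsec by 1.48 and Sephs2 by 1.39 log2. Without iPS 178B5 the calls were 2 of 16, Ncoa3 and Rxra, and 0 of 7, and with reference genes centred Klf9 was not called.

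Of 8 measured retrotransposon-derived relatives of Rtl1, 3 were called lower and 2 higher, beside 17.6% of all genes in either direction. Rtl3 fell by 3.33 log2, Rtl8c fell by 2.38 and Rtl5 fell by 1.21, while Peg10 rose by 1.81 and Ldoc1 by 1.90. Without iPS 178B5 Rtl3 and Peg10 were still called and the other 3 were not, and with reference genes centred Ldoc1 was not called. Elsewhere in the genome, 2 of 17 paternally expressed imprinted genes were called higher and 3 lower (median -0.25), and 2 of 18 maternally expressed ones higher and 5 lower (median -0.12). Without iPS 178B5 these counts were 1 and 1 for the former, where Ndn, Airn and Zdbf2 were no longer called, and 2 and 2 for the latter. Plagl1, a zinc finger gene, fell by 2.22 log2, Ndn fell by 2.16 and the non-coding Airn fell by 1.35, whereas Zdbf2 rose by 2.87. Among the maternally expressed genes Phlda2, a brake on placental growth, rose by 5.44 log2 and Ascl2 by 2.34, while Osbpl5 fell by 2.86 and the adaptor gene Grb10 fell by 1.89. Igf2, the growth factor, read 2.76 in MEF, -1.24 in 178B5, -1.35 in 492B4 and 1.24 in ES. Its ES value lay more than 2 log2 above both iPS lines, yet limma did not call it in iPS against ES, and the fibroblast markers are ordered the same way.

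The genes with the closest pattern to each member were found by the root mean square difference of the 4 centred values. Nearest to Dlk1 were Calhm5 at 0.0373, Rtl8c at 0.0469 and Mfap4 at 0.0516. Nearest to Meg3 were Procr at 0.0467, the imprinted Peg3 at 0.0474 and Tmco1 at 0.0617, and Peg3 like Meg3 was lowest in ES, at -0.62. Nearest to Dio3 was Trim44 at 0.0215, to Rtl1 Arfip2 at 0.0155 and to Rian Ndufa12 at 0.0107. With 4 arrays and 19938 genes such likeness is frequent, since 3818 genes lay within 0.2 of Rtl1 and 2460 within 0.2 of Rian, but 75 of Dlk1 and 145 of Meg3.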

How the data were processed

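The deposited table covers 28853 probe sets on 4 arrays and comes from GCRMA per the submitters' processing notes, with no version named there. Its deposited values were read as log2, since no log base is stated. Each probe set had a median of 0 within 1e-06, so the table holds differences and no levels, and background could not be read. The column standard deviations were 0.887 for MEF, 0.195 for 178B5, 0.282 for 492B4 and 0.267 for ES. Scan dates, batches and the array's build are not given in the sources used here.

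Of the probe sets, 21789 had 1 gene symbol, 1621 several and 5443 none in the platform annotation. The identifiers of 21698 matched the RefSeq gene table of GRCm38.p6 with 0 symbols changed. Probe sets of 1 symbol were averaged per gene, giving 19938 genes, 18939 with 1 probe set. limma 3.58.1 in R 4.3.3 compared the 3 pluripotent lines with MEF (2 residual degrees of freedom), and in a 3-group fit iPS with MEF, ES with MEF and iPS with ES (1 residual degree of freedom). Lone arrays were assumed to vary like the lines that gave the spread, and the number of arrays limits all precision. Genes were called at a Benjamini-Hochberg adjusted p under 0.05 over all genes and at least 1 log2. The fits were tested on simulated data.

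The members and gene lists were chosen with earlier results of these data known. Named were the members, every measured gene from Begain to Dio3 with 4 flanking genes on each side, up to 4 members per list (called ones first, then by size), and the 3 genes nearest in pattern to each member. Zfp57, Dppa3, Dll1, Rtl5, Airn and Igf2 were named in addition, after their values were seen. Further marker lists gave these calls in the pluripotent lines against MEF: fibroblast 12 of 19 lower, primitive endoderm 1 higher and 1 lower of 15, trophoblast 5 higher and 1 lower of 10, skeletal muscle and fat 3 of 11 lower, neural 1 of 8 lower, endothelial 1 higher and 2 lower of 7, macrophage 1 of 6 higher, and reference genes 2 higher and 2 lower of 12.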

Additional observations from a re-analysis of the deposited data

Results flagged for a closer look

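For 8 measured genes in or beside the locus, both iPS lines differed from MEF in one direction and ES in the other. Each value rests on single arrays that share MEF, and the opposite direction itself was not tested. In this order for 178B5, 492B4 and ES, the log2 differences from MEF were -0.263, -0.672 and 0.0907 for Mir329, and -0.573, -0.876 and 0.0439 for Mir679. They were -0.287, -0.431 and 0.0743 for Mir543, and -0.0627, -0.0736 and 0.125 for Mir376a. Mir487b had -0.0886, -0.269 and 0.084, and Mir496a had -0.00372, -0.045 and 0.00412. Among the flanking genes, Ppp2r5c, a phosphatase subunit gene, had 0.387, 0.526 and -0.0473, and 1700001K19Rik had -0.0198, -0.37 and 0.191. All 6 microRNA precursors had lower values in iPS than in MEF and higher ones in ES, but the ES differences are small. With reference genes centred, ES lay above MEF for 0 of the 6 and the opposite direction was gone, and with array medians set equal 4 of the 6 kept it. The limma comparison of iPS with ES called 0 of the 8, with 3 at an unadjusted p under 0.05.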

How the results depend on the processing

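Each line has a single array, and centred values give no signal over background. Leaving out each line in turn gave 0 to 1 members called in the pluripotent lines against MEF, and 1357 to 4216 genes against 3512 with all lines. The lowest of both belongs to the fit without iPS 178B5. In iPS against MEF, 2 members were called with reference genes centred and 2 at a minimum of 0.5 log2, Dio3 being added with -0.99 log2 (limma adjusted p = 0.0126) in the latter. All genes called there came to 6627 at 0.5 log2, against 4216. In iPS against ES, 44 genes were called with array medians set equal, 13 with reference genes centred and 322 among genes with a range of at least 0.5 log2, against 0, and no member was among them. Members past 1 log2 from MEF came to 1 in 178B5 with array medians set equal, and 2 in 492B4 with reference genes centred. With probe sets naming several genes included, Rian in iPS against ES turned to -0.27 log2 (limma adjusted p = 0.674). The cause of these changes was not tested. Of 271 recomputed member values 269 kept their sign. The second to change was Rtl1 in 178B5 minus ES, at -0.03 log2 and 0.0087 with array medians set equal. Setting array medians equal shifted MEF against the lines by less than 0.1 log2, and reference genes put MEF at -0.141. Without an iPS line the 3-group fit had no residual degrees of freedom and gave values with no test. No paired analysis was possible, since with 1 array per line there are no pairs of arrays to match.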
